A study of Mus musculus with 11 samples.

Results

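The genes described here are the 10 core members of the mammalian circadian clock: Clock, Arntl (also named Bmal1), Per1, Per2, Per3, Cry1, Cry2, Nr1d1, Nr1d2 and Dbp. They were chosen by name, and each matched a single gene row among the 53947 rows of the count table. All 10 passed the filter on low counts, which left 14133 genes to be tested. The RNA came from 11 libraries of aTC1-6, an immortalised clonal line of mouse pancreatic alpha cells that makes glucagon. All cells were reverse transfected, that is, plated onto the transfection mix, at 70% confluency, and collected 72 h later. The scramble control has 3 libraries, Mettl3 KD, in which Mettl3 was knocked down, has 4, and Mettl14 KD, in which Mettl14 was knocked down, has 4. The sources used here do not name the knockdown reagent. Neither a clock-resetting treatment nor an hour of the day is given, and all libraries share one collection time, so a change in the level of a rhythmic transcript and a shift of its phase cannot be told apart here. In bulk RNA, fewer cells that express a gene and less RNA per cell cannot be told apart either.

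The circadian clock is a feedback loop of transcription found in most mammalian cells, islet cells included. CLOCK and ARNTL bind as a pair to E-boxes and switch on the Per and Cry genes, whose proteins return to the nucleus and block the pair. The same E-boxes drive Nr1d1 and Nr1d2, nuclear receptors that repress Arntl through ROR elements, and Dbp, a PAR bZIP factor that activates genes through D-boxes. METTL3 is the catalytic and METTL14 the RNA-binding subunit of the writer of N6-methyladenosine (m6A), and loss of Mettl3 is known from other cells to lengthen the clock period.

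Library totals ran from 19576632 to 22406527 counts. Mettl3 averaged 14.9 ± 1.02 CPM (SD, n = 3) in the control libraries against 5.34 ± 0.449 CPM (n = 4) in those of its own knockdown. Mettl14 averaged 25.2 ± 1.70 CPM in the controls against 14.7 ± 0.72 CPM in its own knockdown, so each target was lower in the libraries labelled with its knockdown. Levels are in CPM (counts relative to the library total, the usual sequencing scale) with TMM scaling, except for the sums over marker lists, which are without it. The alpha cell markers Gcg, Irx1, Irx2, Ttr and Pcsk2 were detected in every library, and Gc was listed at 0 in each. Of the beta cell markers, Ins1 and Ins2 did not exceed 0.096 CPM and Pdx1 was listed at 0, while Nkx6-1 was present in every library, from 48.9 to 53.2 CPM with Mettl3 knocked down, 49.04 to 54.8 CPM with Mettl14 knocked down and 54.3 to 71.95 CPM in the controls. The beta cell list summed to 75.2 CPM in scramble replicate 2 and to 49.7 to 56.9 CPM in the other libraries. Ppy, a marker of pancreatic polypeptide cells, was listed at 0. Scramble replicate 2 stood apart: it had the lowest total, lay at -38.1 on principal component 1 against -10.2 and -12.6 for the other scramble libraries, and held 112 CPM of 8 lung and blood transcripts in sum, against at most 5.45 CPM elsewhere. Its sum over mesenchymal, endothelial and immune markers was 31.6 CPM, against at most 5.89 CPM elsewhere. This library also had the highest Nr1d1, Nr1d2, Dbp, Per1, Per2, Per3, Cry1 and Cry2 values of the scramble group. Values without it are therefore given beside the results for the 10 clock genes and for some accessory genes, and its part in the results was not tested.

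The promoter windows below show the clock elements that the known loop runs through, for 4 members and for Ciart, a gene of the same loop. The windows run from 250 bases before to 50 bases after a RefSeq transcript start, are read 5′ to 3′ on the gene's strand, and come from build GRCm38.p6, which may not be the build of the counts. Capitals mark matches, on either strand, to the E-box CACGTG, the D-box TTATGNAA or the core of the ROR element NNTAGGTCA; these motifs do not overlap here.
Per1, chr11:69098699-69098998, plus strand: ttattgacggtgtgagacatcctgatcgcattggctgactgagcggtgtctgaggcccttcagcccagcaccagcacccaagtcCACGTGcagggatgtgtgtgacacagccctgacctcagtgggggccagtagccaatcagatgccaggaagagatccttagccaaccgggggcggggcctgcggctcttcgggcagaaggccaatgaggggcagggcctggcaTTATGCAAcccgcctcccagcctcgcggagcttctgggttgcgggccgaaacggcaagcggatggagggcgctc
Cry1, chr10:85185005-85185304, minus strand: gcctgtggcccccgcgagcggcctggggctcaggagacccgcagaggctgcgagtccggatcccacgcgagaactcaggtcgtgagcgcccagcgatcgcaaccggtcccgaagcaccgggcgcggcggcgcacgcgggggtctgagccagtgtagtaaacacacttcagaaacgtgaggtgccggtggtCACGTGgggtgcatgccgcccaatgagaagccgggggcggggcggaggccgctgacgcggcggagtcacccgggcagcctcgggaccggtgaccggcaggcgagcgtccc
Per3, chr4:151044616-151044915, minus strand: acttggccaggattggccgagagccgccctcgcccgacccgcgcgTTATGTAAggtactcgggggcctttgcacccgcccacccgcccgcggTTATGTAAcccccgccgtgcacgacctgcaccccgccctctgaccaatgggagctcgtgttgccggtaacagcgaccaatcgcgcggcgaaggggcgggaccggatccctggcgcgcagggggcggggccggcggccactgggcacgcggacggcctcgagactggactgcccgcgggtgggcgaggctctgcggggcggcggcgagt
Arntl, chr7:113207261-113207560, plus strand: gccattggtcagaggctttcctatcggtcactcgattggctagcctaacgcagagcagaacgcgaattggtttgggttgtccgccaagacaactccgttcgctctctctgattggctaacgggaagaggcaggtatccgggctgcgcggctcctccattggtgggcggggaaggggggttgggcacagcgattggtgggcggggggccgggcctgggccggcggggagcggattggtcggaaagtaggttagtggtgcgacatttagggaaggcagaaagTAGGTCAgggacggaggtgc
Ciart, chr3:95882179-95882478, minus strand: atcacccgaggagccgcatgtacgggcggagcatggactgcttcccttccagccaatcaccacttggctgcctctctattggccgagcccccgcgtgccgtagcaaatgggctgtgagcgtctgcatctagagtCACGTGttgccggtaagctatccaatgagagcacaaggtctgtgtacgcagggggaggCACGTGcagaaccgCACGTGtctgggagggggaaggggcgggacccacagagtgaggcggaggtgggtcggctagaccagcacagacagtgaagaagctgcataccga
The first of 2 Per1 windows holds an E-box that begins 166 bases before the start and a D-box 24 bases before it. Cry1 holds an E-box 60 bases before the start, Per3 holds D-boxes 205 and 158 bases before it, and the second Arntl window holds a ROR element 30 bases after it. Ciart holds 3 E-boxes, at 116, 58 and 44 bases before its start. Of the accessory clock genes read below, Bhlhe41, Cipc, Tef and Sirt1 also had an E-box in a window, not printed here. The Sirt1 window held 2, at 115 and 43 bases before its start, and Tef had 1 in each of 2 windows. Bhlhe41 was called lower in both knockdowns and Cipc higher in Mettl3 KD, while Tef and Sirt1 were not called against scramble with all libraries. A link between E-boxes and calls was not tested. Over all 32851 windows, 7.15% held an E-box, 0.594% held more than 1 E-box, 3.38% held a D-box and 2.58% a ROR element, and 2 of the 9 members with a window held an E-box. The windows of Clock, Cry2, Nr1d1, Nr1d2 and Dbp held none of these motifs, nor did any member's window hold the cyclic AMP element TGACGTCA, which 1.79% of all windows held. No window for Per2 was in the table used here. A match is a description of these letters and says nothing about binding in these cells.

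In Mettl3 KD, 6 of the 10 clock genes fell against scramble and none rose by edgeR's quasi-likelihood test at an adjusted p of 0.05. The largest decreases were those of Dbp, the D-box activator at the end of the loop, and Nr1d1, the repressor of Arntl also known as REV-ERB alpha, each 1.34-fold lower. Arntl, Cry2, Per1 and Per3 fell by smaller amounts, and Clock, Per2, Cry1 and Nr1d2 did not pass. Among all genes tested, 31.3% were called in this comparison, 15.8% as lower and 15.5% as higher. For 5 of the 10 (Arntl, Per1, Cry2, Nr1d1 and Dbp) every Mettl3 KD library lay below every scramble library; the groups did not overlap for 35.5% of all genes, 17.9% in the lower and 17.5% in the higher direction. The median log2 fold change of the 10 clock genes was -0.15, against -0.004 for all genes tested. Without scramble replicate 2, 4 of the 10 were lower (Dbp, Nr1d1, Arntl and Cry2), with a median of -0.12, when 30.3% of all genes were called, 15.1% as lower and 15.3% as higher. The count was 3 without Mettl3 KD replicate 3.

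In Mettl14 KD, 4 of the 10 fell against the same scramble libraries and none rose. These were Dbp, 1.17-fold lower, Cry2, 1.15-fold lower, Per1, 1.12-fold lower, and Nr1d1, 1.11-fold lower. Arntl and Clock were near their scramble levels. Of all genes tested, 20.9% were called here, 10.8% as lower and 10.1% as higher. The same 4 were below scramble in every Mettl14 KD library; the groups did not overlap for 28.9% of all genes, 14.6% lower and 14.4% higher. The median log2 fold change was -0.09 for the clock genes and 0.00 for all genes. Without scramble replicate 2, Dbp and Cry2 were the 2 that stayed called, the median was -0.06, and 19.5% of all genes were called, 10.1% as lower and 9.34% as higher. Both knockdowns are set against the same 3 scramble libraries, so the 2 comparisons are not independent.

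**Figure D1:**
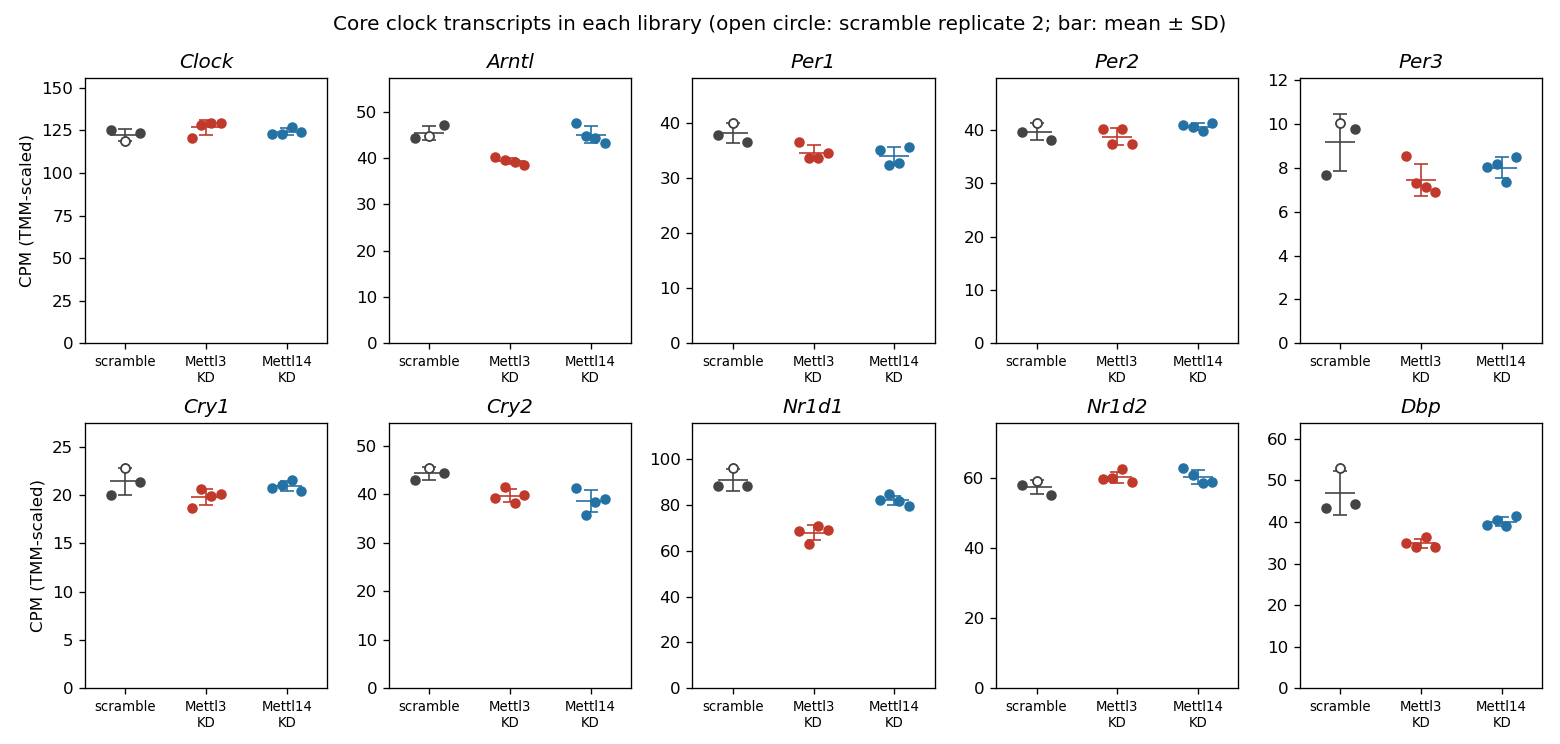
TMM-scaled CPM (vertical axes from 0) of the 10 core clock genes in each of the 11 libraries, by group; points are libraries, bars the mean ± SD, and the open circle is scramble replicate 2. The Mettl3 KD points lie below all scramble points for Arntl, Per1, Cry2, Nr1d1 and Dbp, and the open circle is the highest scramble point for 8 of the 10 genes.

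Of the 2 activators, Arntl fell in Mettl3 KD and Clock did not pass in either knockdown. Clock (ENSMUSG00000029238), which encodes the bHLH-PAS partner of ARNTL, had 125, 119 and 123 CPM in the scramble libraries, 120.4, 128, 129.5 and 129 CPM in Mettl3 KD and 123, 123, 127 and 124 CPM in Mettl14 KD. The groups overlapped, and its log2 fold change was 0.052 (95% interval -0.019 to 0.12, adjusted p = 0.268) in Mettl3 KD and 0.022 (95% interval -0.049 to 0.093, adjusted p = 0.692) in Mettl14 KD. Leaving out scramble replicate 2 gave 0.03 ± 0.03 (adjusted p = 0.552) and 0.001 ± 0.03 (adjusted p = 0.993) for Clock. Arntl (ENSMUSG00000055116), the partner without which the clock stops, had 44.3, 44.8 and 47.1 CPM in the scramble libraries, 40.2, 39.6, 39.2 and 38.5 CPM in Mettl3 KD and 47.6, 44.7, 44.3 and 43.3 CPM in Mettl14 KD. Every Mettl3 KD library was below every scramble and every Mettl14 KD library, while scramble and Mettl14 KD overlapped. The log2 fold change of Arntl was -0.20 ± 0.04 (adjusted p = 0.000983) in Mettl3 KD and -0.014 (95% interval -0.10 to 0.075, adjusted p = 0.857) in Mettl14 KD, and without scramble replicate 2 that in Mettl3 KD was -0.21 ± 0.05 (adjusted p = 0.000416) and that in Mettl14 KD was -0.023 ± 0.05 (adjusted p = 0.795). For CPM and TPM the ± gives the SD, and for log2 fold changes the standard error.

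Of the Period genes, which encode the slowly accumulating repressors whose phosphorylation times the loop, Per1 and Per3 were lower in Mettl3 KD and Per2 was not called. Per1 (ENSMUSG00000020893), also an immediate early gene that responds to cyclic AMP, had 37.8, 40.05 and 36.6 CPM in the scramble libraries, 36.5, 33.7, 33.7 and 34.5 CPM in Mettl3 KD and 35.1, 32.3, 32.8 and 35.5 CPM in Mettl14 KD. All knockdown libraries lay below all scramble libraries, by a narrow margin in the case of Mettl3 KD replicate 1. Its log2 fold change was -0.14 ± 0.05 (adjusted p = 0.0344) in Mettl3 KD and -0.17 ± 0.05 (adjusted p = 0.0193) in Mettl14 KD. Neither call held without scramble replicate 2, at -0.10 ± 0.05 (adjusted p = 0.118) and -0.13 ± 0.05 (adjusted p = 0.0637). The Mettl3 KD call was also lost on leaving out scramble replicate 1 or any of Mettl3 KD replicates 2, 3 and 4, at -0.15 to -0.13, and the Mettl14 KD call without Mettl14 KD replicate 2 or 3, both at -0.15.

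Per2 (ENSMUSG00000055866), the Period gene whose loss shortens or stops rhythms in mice, had 39.7, 41.2 and 38.1 CPM in the scramble libraries, 40.2, 37.3, 40.1 and 37.4 CPM in Mettl3 KD and 40.9, 40.5, 39.8 and 41.4 CPM in Mettl14 KD. The 3 groups overlapped throughout. Its log2 fold change was -0.033 (95% interval -0.13 to 0.06, adjusted p = 0.617) in Mettl3 KD and 0.035 (95% interval -0.058 to 0.13, adjusted p = 0.625) in Mettl14 KD. With scramble replicate 2 left out, Per2 was at -0.005 ± 0.05 (adjusted p = 0.953) and 0.063 ± 0.05 (adjusted p = 0.397). Per3 (ENSMUSG00000028957), which is dispensable for rhythms in many tissues, had 7.66, 10.1 and 9.74 CPM in the scramble libraries, 8.51, 7.29, 7.10 and 6.90 CPM in Mettl3 KD and 8.01, 8.16, 7.34 and 8.50 CPM in Mettl14 KD. Scramble replicate 1 lay within the range of both knockdowns, and the other scramble libraries lay above it. Per3 was called lower in Mettl3 KD, at -0.29 ± 0.10 (adjusted p = 0.0285), and not in Mettl14 KD, at -0.19 (95% interval -0.40 to 0.014, adjusted p = 0.182), which became -0.12 ± 0.10 (adjusted p = 0.47) with scramble replicate 2 left out. With the lowest counts of the 10 genes, Per3 lost its Mettl3 KD call on leaving out scramble replicate 2 or 3, or any of Mettl3 KD replicates 2, 3 and 4, at -0.28 to -0.22, and was called lower in Mettl14 KD without scramble replicate 1, at -0.30 (adjusted p = 0.0287).

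The Cryptochromes are the strongest repressors of CLOCK and ARNTL. Cry2 (ENSMUSG00000068742) had 42.9, 45.5 and 44.5 CPM in the scramble libraries, 39.3, 41.6, 38.2 and 39.9 CPM in Mettl3 KD and 41.3, 35.8, 38.4 and 39.01 CPM in Mettl14 KD. All 8 knockdown libraries lay below all scramble libraries. Its log2 fold change was -0.16 ± 0.05 (adjusted p = 0.0166) in Mettl3 KD and -0.20 ± 0.05 (adjusted p = 0.006) in Mettl14 KD. With scramble replicate 2 left out it was -0.14 ± 0.05 (adjusted p = 0.0313) and -0.18 ± 0.05 (adjusted p = 0.00903). The Mettl3 KD call was lost on leaving out replicate 3 of either group, at -0.14 in both cases. Cry1 (ENSMUSG00000020038) had 20.03, 22.9 and 21.4 CPM in the scramble libraries, 18.6, 20.6, 19.9 and 20.1 CPM in Mettl3 KD and 20.8, 21.01, 21.6 and 20.4 CPM in Mettl14 KD. The groups overlapped, and the log2 fold change of Cry1 was -0.11 (95% interval -0.23 to 0.008, adjusted p = 0.15) in Mettl3 KD and -0.031 (95% interval -0.15 to 0.088, adjusted p = 0.745) in Mettl14 KD. On leaving out scramble replicate 2, the value of Cry1 went to -0.064 ± 0.06 (adjusted p = 0.491) in Mettl3 KD and 0.016 ± 0.06 (adjusted p = 0.905) in Mettl14 KD, where its sign changed.

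The REV-ERB receptors NR1D1 and NR1D2 form the second loop by repressing Arntl; Nr1d1 fell in both knockdowns and Nr1d2 did not pass in either. Nr1d1 (ENSMUSG00000020889) had 88.02, 96.2 and 88.1 CPM in the scramble libraries, 68.7, 62.98, 70.6 and 69.1 CPM in Mettl3 KD and 81.9, 84.6, 81.5 and 79.5 CPM in Mettl14 KD. The Mettl3 KD libraries were the lowest 4, the Mettl14 KD libraries lay between, and the scramble libraries were the highest 3, with no overlap between any groups. Its log2 fold change was -0.42 ± 0.04 (adjusted p = 2.92e-07) in Mettl3 KD and -0.15 ± 0.04 (adjusted p = 0.0159) in Mettl14 KD. When scramble replicate 2 was left out, the former was -0.38 ± 0.04 (adjusted p = 1.26e-09) and the latter was -0.11 ± 0.04 (adjusted p = 0.0533), which did not pass, as it did not without Mettl14 KD replicate 4, at -0.13 (adjusted p = 0.0611). Nr1d2 (ENSMUSG00000021775) had 58.2, 59.1 and 55.2 CPM in the scramble libraries, 59.7, 60.2, 62.6 and 58.9 CPM in Mettl3 KD and 63.1, 61.03, 58.5 and 58.9 CPM in Mettl14 KD. The groups overlapped. The log2 fold change of Nr1d2 was 0.07 (95% interval -0.013 to 0.15, adjusted p = 0.195) in Mettl3 KD and 0.071 (95% interval -0.013 to 0.15, adjusted p = 0.225) in Mettl14 KD, so the intervals reach below 0 only slightly and leave out decreases of the size seen in Nr1d1. Nr1d2 was at 0.09 ± 0.04 (adjusted p = 0.11) and 0.091 ± 0.04 (adjusted p = 0.141) when scramble replicate 2 was left out.

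Dbp (ENSMUSG00000059824), a direct E-box target and one of the most rhythmic transcripts of many tissues, had 43.3, 53.05 and 44.4 CPM in the scramble libraries, 35.01, 34.1, 36.4 and 34.03 CPM in Mettl3 KD and 39.3, 40.5, 39.04 and 41.4 CPM in Mettl14 KD. As for Nr1d1, the 3 groups did not overlap, with Mettl3 KD lowest and scramble highest, and scramble replicate 2 lay well above the rest of its group. The log2 fold change of Dbp was -0.42 ± 0.06 (adjusted p = 1.24e-05) in Mettl3 KD and -0.23 ± 0.06 (adjusted p = 0.00755) in Mettl14 KD. When scramble replicate 2 was left out these were -0.33 ± 0.05 (adjusted p = 5.06e-07) and -0.13 ± 0.05 (adjusted p = 0.0401), so the Mettl14 KD value was more than 1.5 times smaller while both calls remained.

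**Figure D2:**
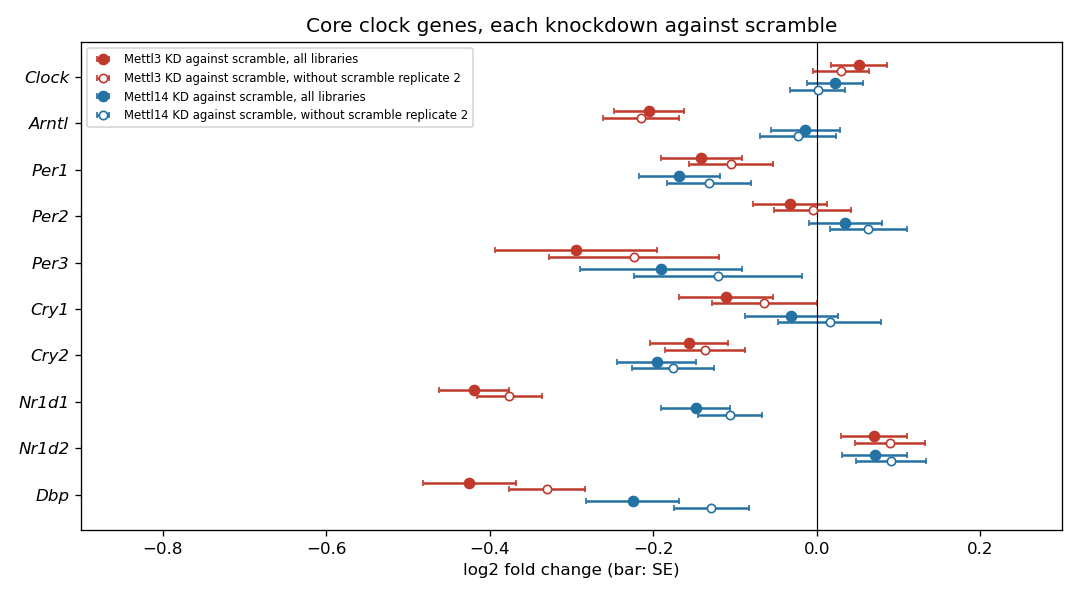
Log2 fold change with its standard error (horizontal axis) of each core clock gene in Mettl3 KD (red) and Mettl14 KD (blue) against scramble, with all libraries (filled) and without scramble replicate 2 (open). Nr1d1 and Dbp lie farthest to the left in Mettl3 KD, both at -0.42, Arntl is displaced in Mettl3 KD alone, and Nr1d2 and Clock lie on the right of 0.

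Setting Mettl3 KD against Mettl14 KD directly, Nr1d1, Dbp and Arntl were lower in Mettl3 KD and none of the 10 was higher, when 8.1% of all genes were called, 4.44% as lower and 3.66% as higher. The log2 difference was -0.27 ± 0.04 (adjusted p = 0.000185) for Nr1d1, -0.19 ± 0.04 (adjusted p = 0.00431) for Arntl and -0.20 ± 0.05 (adjusted p = 0.0255) for Dbp, and each Mettl3 KD library was below each Mettl14 KD library for all 3 genes; the groups did not overlap for 17.6% of all genes, 9.21% lower and 8.43% higher. Scramble libraries enter this comparison only through the filter, the scaling and the shared estimate of the spread: without scramble replicate 2 the difference for Dbp was -0.20 ± 0.04 (adjusted p = 0.000284), the same 3 genes were called, and 14.8% of all genes were, 7.62% as lower and 7.22% as higher. The call of Dbp was lost on leaving out any knockdown library except replicate 3 of either group, at -0.21 to -0.18. For the other 7 genes the difference did not pass, with intervals from -0.30 to 0.092 for Per3, from -0.069 to 0.12 for Per1 and from -0.054 to 0.13 for Cry2. The median over the 10 genes was -0.07, against 0.002 over all genes tested. The knockdowns differed in depth: Mettl3 was at 35.8% of its scramble mean in Mettl3 KD, and Mettl14 at 58.1% in Mettl14 KD. Mettl14 itself was higher in Mettl3 KD than in scramble, at 0.22 (adjusted p = 0.00494). The subunit knocked down and the depth of its knockdown therefore cannot be told apart here.

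Levels of different genes can be compared only per length, and for these genes the outcome depended on which length was used. With each gene's median transcript length in GENCODE M21, scramble levels per length (TPM, counts per length relative to their sum over genes) were 55.8 ± 4.09 for Nr1d1, 51.2 ± 2.66 for Nr1d2, 50.6 ± 4.34 for Cry1, 40.4 ± 5.51 for Dbp, 33.0 ± 0.278 for Clock, 22.5 ± 1.09 for Cry2, 17.9 ± 0.579 for Arntl, 14.1 ± 0.833 for Per2, 10.2 ± 0.677 for Per1 and 2.32 ± 0.361 for Per3 (SD, n = 3). Nr1d1, Nr1d2 and Cry1 did not differ beyond their spread, and the lowest Cry1 value, 46.6, was below the highest Dbp value, 46.7. With the longest transcript in place of the median, Nr1d1 was highest at 74.5, Dbp next at 57.1 and Per3 lowest at 3.41, while Cry1, whose median length is 456 bases and whose longest transcript is 3026 bases, went from 50.6 to 15.8. Per3 was thus the lowest under both lengths, Nr1d1 had the highest mean under both but overlapped Nr1d2 and Cry1 with the median length, and the order of the other genes changed. Per3 lay above 20.7% of tested genes by level and Nr1d1 above 74.4%.

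A ratio of 2 genes within a library can be compared between libraries, since the lengths scale every library alike. Per longest transcript, the ratio of Nr1d1 to Nr1d2 was 2.59 to 2.79 in the scramble libraries, 2.23 to 2.38 in Mettl14 KD and 1.79 to 2.01 in Mettl3 KD, with no overlap between groups. The ratio of Clock to Arntl was 1.07 to 1.16 in scramble, 1.06 to 1.18 in Mettl14 KD and 1.23 to 1.38 in Mettl3 KD. Here Mettl3 KD alone stood apart, and scramble and Mettl14 KD overlapped. The ratio of Per1 to Per2 was 1.19 to 1.21 in scramble, 1.05 to 1.15 in Mettl3 KD and 0.997 to 1.07 in Mettl14 KD. The ratio of Cry2 to Cry1 was 1.52 to 1.63, 1.46 to 1.60 and 1.30 to 1.51 in the same order. The size of a ratio depends on the length used, so it does not rank the genes of a pair. In scramble, Cry2 and Cry1 were at 22.5 and 50.6 TPM with the median length and at 24.9 and 15.8 TPM with the longest. These ratios are given as a description, with no test.

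**Figure D3:**
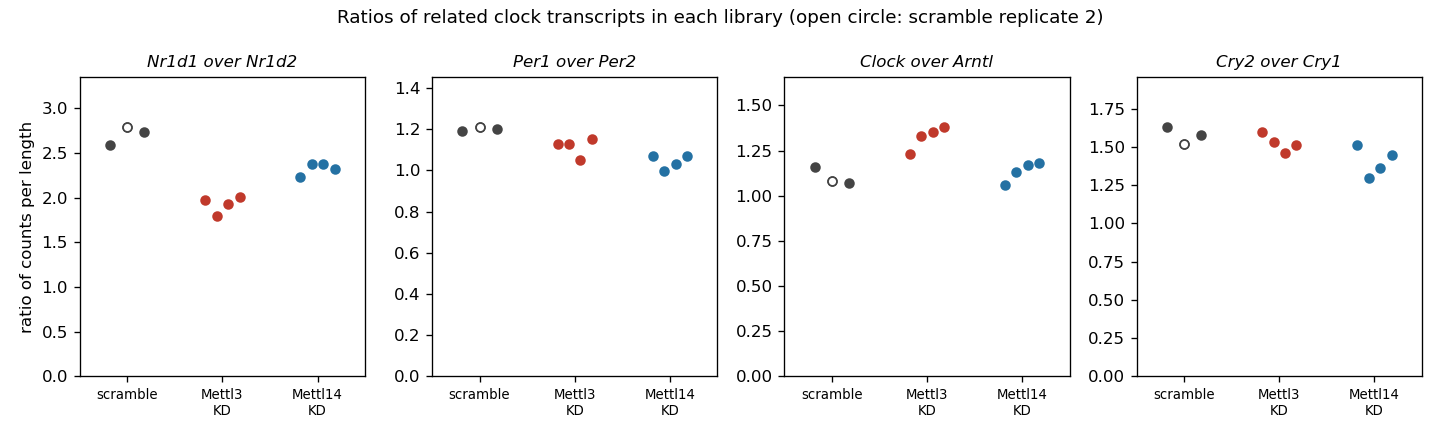
Ratio of counts per longest transcript length (vertical axes from 0) for 4 pairs of clock genes in each library, by group; the open circle is scramble replicate 2. The ratio of Nr1d1 to Nr1d2 separates the 3 groups, and that of Clock to Arntl separates Mettl3 KD from the others.

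Beyond the core, 44 accessory clock genes were read in 6 lists, and 41 passed the filter; Nampt and Usp2 stand in 2 lists each. Npas2, the stand-in for Clock in the brain, had 1 to 5 counts in each scramble library and 0 or 1 in each Mettl3 KD library, and was not tested. In Mettl3 KD 13 of the 41 fell and 4 rose (16 and 5 without scramble replicate 2), and the median was -0.03. In Mettl14 KD 10 fell and 4 rose (9 and 6 without scramble replicate 2), and the median was 0.003. Of all genes, 31.3% and 20.9% were called in these comparisons, and 30.3% and 19.5% without scramble replicate 2.

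Of the 5 tested bHLH repressors and partners, 3 fell in each knockdown, and 1 rose in Mettl3 KD. The called share was 80% in Mettl3 KD and 60% in Mettl14 KD, against 31.3% and 20.9% of all genes. Bhlhe40 (DEC1), an E-box repressor that is also induced by hypoxia, had 275, 273 and 286 CPM in the scramble libraries, 174, 162, 167 and 165 CPM in Mettl3 KD and 178, 164, 188 and 177 CPM in Mettl14 KD. The knockdown libraries were all far below scramble, and its log2 fold change was -0.74 ± 0.04 (adjusted p = 2.71e-11) in Mettl3 KD and -0.65 ± 0.04 (adjusted p = 2.21e-10) in Mettl14 KD. Its paralogue Bhlhe41 (DEC2) fell by less, at -0.39 ± 0.04 (adjusted p = 5.03e-07) and -0.27 ± 0.04 (adjusted p = 8.62e-05). Ciart (CHRONO), the repressor whose promoter with 3 E-boxes is printed above, had 16.4, 15.5 and 16.3 CPM in the scramble libraries, 12.7, 11, 10.9 and 11.4 CPM in Mettl3 KD and 10.6, 10.6, 10.04 and 11.3 CPM in Mettl14 KD. Both knockdown groups lay below scramble, at -0.48 ± 0.07 (adjusted p = 1.55e-05) in Mettl3 KD and -0.60 ± 0.07 (adjusted p = 2.23e-06) in Mettl14 KD. Cipc, an inhibitor that binds CLOCK, was the 1 gene of this list called higher in Mettl3 KD, at 0.17 ± 0.05 (adjusted p = 0.0161); its call was lost without scramble replicate 1, at 0.12 (adjusted p = 0.101). In Mettl14 KD Cipc was at 0.12 ± 0.05 and, among the fits that left out 1 library, was called only without scramble replicate 2, at 0.18 ± 0.05 (adjusted p = 0.00686). Arntl2, a paralogue of Arntl at low level here, did not pass, at -0.013 (95% interval -0.41 to 0.38, adjusted p = 0.97) and 0.007 (95% interval -0.39 to 0.40, adjusted p = 0.986).

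The ROR receptors compete with NR1D1 and NR1D2 for the ROR elements of Arntl and activate it. Only Rora and Rorb are described here. Rora had 21.4, 19.6 and 20.4 CPM in the scramble libraries, 12.5, 11.5, 11.8 and 13.6 CPM in Mettl3 KD and 14.2, 12.2, 13.8 and 14.8 CPM in Mettl14 KD. The knockdown libraries did not overlap scramble, and Rora fell by 0.73 ± 0.07 on the log2 scale in Mettl3 KD (adjusted p = 1.80e-07) and by 0.57 ± 0.07 in Mettl14 KD (adjusted p = 5.83e-06). Rorb, which had 113, 105 and 113 CPM in the scramble libraries, 86.3, 95.7, 98.4 and 95.01 CPM in Mettl3 KD and 115, 116, 116 and 115 CPM in Mettl14 KD, was low only in the Mettl3 KD libraries. Its log2 fold change was -0.23 ± 0.04 (adjusted p = 0.00016) in Mettl3 KD and 0.064 (95% interval -0.019 to 0.15, adjusted p = 0.278) in Mettl14 KD, and the difference between the knockdowns was -0.30 ± 0.04 (adjusted p = 3.14e-05).

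The PAR bZIP relatives of Dbp and their antagonist were mixed. Hlf, a D-box activator, had 43.4, 41.05 and 43.4 CPM in the scramble libraries, 37.2, 36.3, 36.96 and 35.5 CPM in Mettl3 KD and 43.7, 45.4, 44.2 and 44.2 CPM in Mettl14 KD. The Mettl3 KD libraries lay below all others, at -0.23 ± 0.04 (adjusted p = 0.00025) against scramble and -0.28 ± 0.04 (adjusted p = 6.21e-05) against Mettl14 KD, while Mettl14 KD was at 0.057 (95% interval -0.026 to 0.14, adjusted p = 0.335) against scramble. Tef, the third D-box activator, did not pass in either knockdown, at -0.067 (95% interval -0.14 to 0.004, adjusted p = 0.147) and -0.068 (95% interval -0.14 to 0.003, adjusted p = 0.171), though without scramble replicate 2 it was called lower in both, at -0.10 ± 0.03 (adjusted p = 0.0191) and -0.10 ± 0.03 (adjusted p = 0.027). Nfil3 (E4BP4), which represses the D-box sites that Dbp activates, was called lower in Mettl3 KD, at -0.28 ± 0.06 (adjusted p = 0.000883), and in Mettl14 KD, at -0.21 ± 0.06 (adjusted p = 0.0127). The latter call was lost without scramble replicate 2, at -0.14 ± 0.06 (adjusted p = 0.0736).

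Of the 11 tested kinases and ubiquitin ligases that act on PER and CRY proteins, 1 rose and 1 fell in Mettl3 KD and 3 rose in Mettl14 KD. The called share was 18.2% and 27.3%, against 31.3% and 20.9% of all genes. None of the 11 was called between the knockdowns, where 8.1% of all genes were. Gsk3b, a kinase that phosphorylates several clock proteins, fell in Mettl3 KD, at -0.17 ± 0.04 (adjusted p = 0.000764). In Mettl14 KD Gsk3b was at -0.095 ± 0.04 and did not pass (adjusted p = 0.0589), but was called lower without scramble replicate 3, at -0.13 (adjusted p = 0.0127). Prkaa1, a catalytic subunit of the AMP-activated kinase that marks CRY1 for breakdown, was higher in both, at 0.11 ± 0.03 (adjusted p = 0.0213) and 0.16 ± 0.03 (adjusted p = 0.00169). In Mettl3 KD the Prkaa1 call was lost on leaving out replicate 3 of scramble, or replicate 3 or 4 of Mettl3 KD, at 0.094 to 0.1. In Mettl14 KD Btrc, a ligase subunit for PER proteins, was higher at 0.17 ± 0.04 (adjusted p = 0.00628), as was Prkaa2 at 0.21 ± 0.07 (adjusted p = 0.0363), whose call was lost on leaving out scramble replicate 1 or 3, or any of Mettl14 KD replicates 1, 2 and 4, at 0.17 to 0.21. Neither gene passed in Mettl3 KD, with Btrc at 0.10 ± 0.04 (adjusted p = 0.0586) and Prkaa2 at 0.16 ± 0.07 (adjusted p = 0.0779). Without scramble replicate 2, Prkaa2 was called higher in Mettl3 KD, at 0.23 ± 0.07 (adjusted p = 0.00955). The casein kinase genes Csnk1d and Csnk1e did not pass in either, though on leaving out scramble replicate 2 Csnk1d was called lower in Mettl3 KD, at -0.086 ± 0.03 (adjusted p = 0.0408) against -0.031 ± 0.04 with all libraries.

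Of 12 cofactors, Nampt fell and Timeless rose in both knockdowns. The called share was 16.7% in each, against 31.3% of all genes in Mettl3 KD and 20.9% in Mettl14 KD. Nampt, which makes the NAD precursor used by the clock-linked deacetylase SIRT1, was at -0.42 ± 0.04 (adjusted p = 5.49e-08) in Mettl3 KD and -0.37 ± 0.04 (adjusted p = 5.07e-07) in Mettl14 KD. Timeless, a replication fork protein with a debated clock role in mammals, was at 0.14 ± 0.04 (adjusted p = 0.0239) and 0.16 ± 0.04 (adjusted p = 0.0125). Both Timeless calls were lost without scramble replicate 2, at 0.076 ± 0.04 (adjusted p = 0.159) and 0.10 ± 0.04 (adjusted p = 0.0717), and the Mettl3 KD call also without Mettl3 KD replicate 3, at 0.12 (adjusted p = 0.0616). Of 9 tested clock-controlled outputs, 5 fell in each knockdown and none rose: besides Nampt, these were Cdkn1a, the cell cycle inhibitor p21, at -0.41 ± 0.06 (adjusted p = 0.000237) and -0.47 ± 0.06 (adjusted p = 0.00014), Ppard, a fatty acid receptor, at -0.20 ± 0.04 (adjusted p = 0.000251) and -0.21 ± 0.04 (adjusted p = 0.000191), Por and Tsc22d3. The 5 were 55.6% of the list, against 15.8% of all genes called lower in Mettl3 KD and 10.8% in Mettl14 KD. Without scramble replicate 2 the outputs counted 5 lower and 1 higher in Mettl3 KD and 4 lower and 1 higher in Mettl14 KD. Of all genes, 15.1% were then lower and 15.3% higher, and 10.1% lower and 9.34% higher. Tsc22d3 lost its Mettl14 KD call without scramble replicate 2, at -0.15 ± 0.06 (adjusted p = 0.0977). The same held without scramble replicate 3 or Mettl14 KD replicate 2 or 4, at -0.175 to -0.168. These output genes respond to many signals besides the clock.

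**Figure D4:**
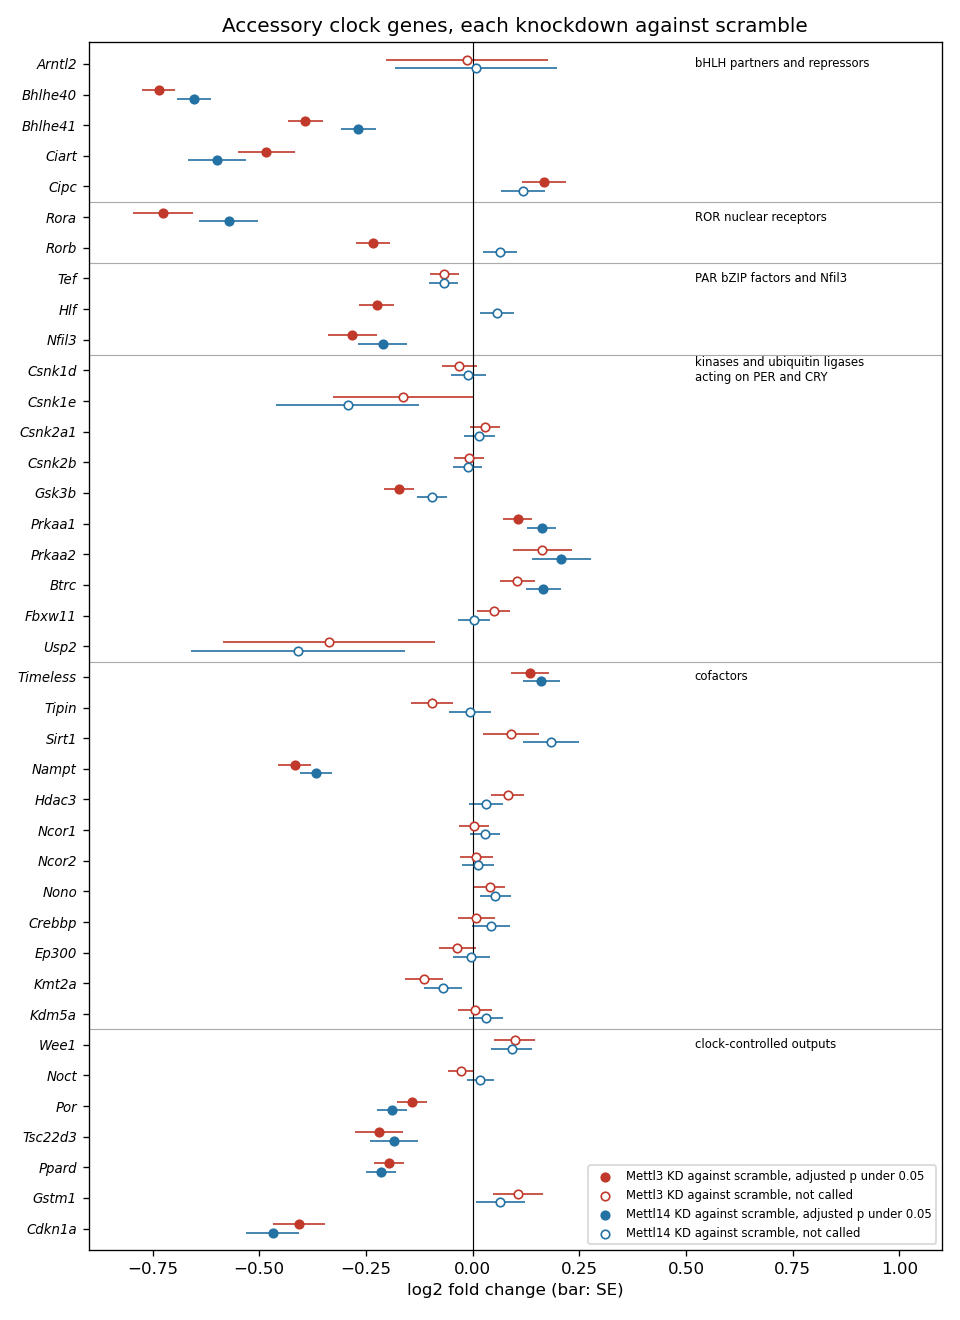
Log2 fold change with its standard error (horizontal axis) of 39 of the 41 tested accessory clock genes in Mettl3 KD (red) and Mettl14 KD (blue) against scramble, grouped by list; filled points passed an adjusted p of 0.05. Bhlhe40, Rora, Ciart and Nampt lie to the left in both knockdowns, and Rorb, Hlf, Cipc and Gsk3b are filled in red alone.

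Several members share sequence with a gene on the opposite strand, and the sources used here do not say whether reads were assigned by strand. In GENCODE M21, 8.5% of the exonic bases of Nr1d1 overlap exons of Thra, a thyroid hormone receptor gene that runs towards it, and 18% of those of Dbp overlap exons of Sphk2, a sphingosine kinase gene. Thra also fell, at -0.32 ± 0.04 (adjusted p = 1.04e-06) in Mettl3 KD and -0.20 ± 0.04 (adjusted p = 0.000522) in Mettl14 KD, by less than Nr1d1 in the former and with 75 ± 2.72 CPM in scramble and 59.97 ± 1.17 CPM in Mettl3 KD. Sphk2 was at 0.12 (95% interval -0.002 to 0.24, adjusted p = 0.13) in Mettl3 KD and -0.042 (95% interval -0.17 to 0.082, adjusted p = 0.666) in Mettl14 KD. How far Thra reads enter the Nr1d1 counts was not tested. For Cry2, 4.7% of exonic bases overlap a non-coding gene at 0.404 ± 0.0882 CPM in scramble, D930015M05Rik.

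The members also differ in how often the letters GGACT occur, a common form of the m6A consensus, on the transcript strand. Per kilobase of the longest GENCODE M21 transcript there were 2.52 in Cry2, 1.89 in Per2, 1.5 in Per1, 1.5 in Arntl, 1.1 in Nr1d1, 0.83 in Per3, 0.82 in Clock, 0.66 in Cry1 and 0.64 in Nr1d2, and there was no match in the 1837 bases of Dbp. The median over 13731 tested genes was 1.02, with quartiles at 0.62 and 1.48. The called genes ran from no match in Dbp to the highest number per kilobase among the 10, in Cry2. Per2, with the most matches in its longest transcript, 11, was not called. A link between these matches and the calls was not tested. No m6A measurement was used here, so a match does not show methylation.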

How the data were processed

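Stranded mRNA libraries of 11 samples were sequenced. The deposited table holds the authors' estimated counts for each gene, not scaled to a common total; kallisto is named, without a version, in the submitters' processing notes. Build, annotation, strand setting and the step from transcripts to genes: not given in the sources used here. Of the values, 11.6% were not whole, and they were rounded.

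Symbols came from GENCODE M21, which named 48651 of 53947 rows. All 11 libraries entered one edgeR 4.0.16 fit in R 4.3.3 with a mean per group, after filterByExpr (minimum count 10), TMM scaling and robust quasi-likelihood F-tests, adjusted by Benjamini-Hochberg over 14133 genes and called at 0.05. Standard errors were approximated from the absolute log2 fold change over the root of F. Biological variation (BCV) was 4.38% on 8 residual degrees of freedom. Whether replicates were grown separately is not stated; p-values then cover the spread of these libraries, which may be technical. Every replicate pair differed by more than the sampling noise of whole counts (lowest chi-square over its degrees of freedom 2.02). The counts are rounded estimates, so this does not show whether replicates were grown separately. The method was tested on simulated data.

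Named were all members and, except as stated below, the tested genes of the bHLH, ROR and PAR bZIP lists. Each other list gave up to 3 called genes with the smallest adjusted p in each knockdown against scramble. Csnk1d and Csnk1e, not called against scramble with all libraries, were named outside this rule. Por, Tsc22d3, Sirt1, the overlapping genes and the GGACT count were chosen after values were seen. A few listed genes entered the fit and the counts but are not reported here by name. Members and lists were chosen with earlier results of these data known. Alternatives were DESeq2 1.42.0, limma-voom (limma 3.58.1), other scaling, no filter, pairwise fits, a replicate block and leaving out each library.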

Additional observations from a re-analysis of the deposited data

Results flagged for a closer look

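Among 102 groups of 4 libraries checked for the tested clock genes, 7 held a library whose gap to the nearest other exceeded the 95% limit of Dixon's test; chance gives about 1 in 20. Clock was at 120.4 CPM in Mettl3 KD replicate 1, against 128 to 129.5 CPM in the other Mettl3 KD libraries. Tef was at 128.1 CPM in Mettl3 KD replicate 2, against 134.4 to 135.4 CPM. Tipin, a partner of Timeless, was at 52.87 CPM in Mettl3 KD replicate 4, against 49.99 to 50.19 CPM. Nampt was at 121.8 CPM in Mettl3 KD replicate 2, against 125.9 to 126.7 CPM. Hdac3, a deacetylase recruited by NR1D1, was at 103.2 CPM in Mettl3 KD replicate 3, against 109.1 to 110.0 CPM. Nono, an RNA-binding partner of PER proteins, was at 495.5 CPM in Mettl14 KD replicate 2, against 485 to 485.8 CPM, and Noct, a rhythmic phosphatase, at 443.3 CPM there, against 438.5 to 438.8 CPM. Each gap is small beside the mean of its group.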

How the results depend on the processing

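Over 18 alternatives for each of 10 clock genes in 3 comparisons, 498 values kept direction and side of the threshold, 29 lost a call, 1 gained one and 12 changed sign, all 12 for values that were not called. The calls of Dbp, Nr1d1 and Arntl in Mettl3 KD and of Dbp and Cry2 in Mettl14 KD held under all 18. DESeq2 called 4 clock genes in Mettl3 KD, against 6, without Per1 and Per3, as did the fit of those 2 groups alone. Leaving out one library gave 3 to 6 called clock genes in Mettl3 KD, 2 to 5 in Mettl14 KD and 2 to 3 between the knockdowns; accessory genes gave 15 to 21, 12 to 15 and 2 to 4, and all genes 3705 to 4343, 2276 to 3091 and 713 to 2125. The fit of the 2 knockdown groups alone called 5 accessory genes, against 3, and 2187 of all genes, against 1145; the cause was not tested. Same-numbered libraries did not deviate together (correlations -0.118 to 0.067 over 10 pairs), so the number is no known pairing. With the replicate number as a block, 5, 3 and 3 clock genes were called: Per3 in Mettl3 KD went to -0.29 (adjusted p = 0.0648) and Nr1d1 in Mettl14 KD to -0.15 (adjusted p = 0.0518), and Arntl in Mettl14 KD to 0.000314. Nr1d2 between the knockdowns was 0.000195 with RLE factors and 2e-04 with DESeq2. The values that changed sign ranged, over all 18 alternatives, from -0.0376 to 0.0209 for Arntl and -0.0771 to 0.016 for Cry1 in Mettl14 KD. Between the knockdowns they ranged from -0.000195 to 0.0509 for Per1 and -0.0186 to 0.0219 for Nr1d2. Per3 had the fewest counts of the 10 clock genes, and Npas2 had too few to be tested.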
